A study of Mus musculus with 8 samples.

Results

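Small leucine-rich proteoglycans are secreted proteins whose leucine-rich core binds collagen or growth factors in the extracellular matrix. The members described are lumican (Lum), decorin (Dcn), biglycan (Bgn), fibromodulin (Fmod), osteoglycin (Ogn), prolargin (Prelp) and asporin (Aspn) and are taken as named genes of the family. All probe sets annotated to exactly 1 of these symbols were taken, which gave 18 of the 45037 probe sets in the table and 7 of its 18193 named genes. Lum had 1 probe set, Dcn, Ogn, Prelp and Aspn had 2 each, Bgn had 3 and Fmod had 6. No probe set annotated to several genes named a member.

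The arrays measured messenger RNA in whole aorta of 4 month-old mice, 4 arrays from mutants and 4 from controls. The mutants were SRF-flex2neo -SM22CreERT2ki/+, whose Cre recombinase is switched on by tamoxifen. It is made from the Tagln locus, which encodes the smooth muscle protein SM22, so that Srf is deleted in smooth muscle. Srf encodes serum response factor (SRF), a transcription factor of muscle and cytoskeleton genes. The controls were SRF-flex2neo littermates, for which no Cre is labelled. Both groups therefore carried the SRF-flex2neo allele, and both received 1 mg of tamoxifen i.p. for 3 days and were killed 8 days later. Since only the mutants carried the Cre and the altered Tagln allele, effects of these and of the Srf deletion cannot be told apart. The titles number 2 sets of 4 arrays, each with 2 mutants and 2 controls. Arrays 1 and 2 of each group belong to set 1 and arrays 3 and 4 of each group to set 2, with no statement of what a set is. Whether every array is from its own mouse is likewise unstated, and the p-values therefore cover only array-to-array spread, which may be technical. The study asked which vascular genes differ early after the loss of SRF.

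Decorin and biglycan carry chains of chondroitin or dermatan sulfate, and lumican and fibromodulin carry keratan sulfate. Decorin, lumican and fibromodulin bind collagen and control how its fibrils grow and pack, and the soluble forms of decorin and biglycan also bind transforming growth factor beta and receptors of innate immunity. In the vessel wall these proteins are made by smooth muscle cells and by the fibroblasts of the adventitia, the outer coat of the vessel.

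The genes lie in clusters with other members of the family. In the gene order of RefSeq for the build GRCm38.p6, Prelp and Fmod are neighbours on chromosome 1 beside opticin (Optc). Dcn and Lum are neighbours on chromosome 10, followed by keratocan (Kera) and epiphycan (Epyc). Aspn and Ogn lie on chromosome 13 with osteomodulin (Omd) between them and Ecm2 on the other side of Aspn, while Bgn lies apart on the X chromosome. RefSeq's promoter table matched 5 of the 7 members, and Lum and Dcn are not in it. The 250 bases before the annotated start are shown for 2 members that were higher in the mutants, Fmod and Aspn, and for 2 that were not, Bgn and Ogn. Each is written 5′ to 3′ along its gene, and capitals mark matches to the motifs searched.
Fmod, GRCm38.p6 chr1:134037004-134037253, plus strand: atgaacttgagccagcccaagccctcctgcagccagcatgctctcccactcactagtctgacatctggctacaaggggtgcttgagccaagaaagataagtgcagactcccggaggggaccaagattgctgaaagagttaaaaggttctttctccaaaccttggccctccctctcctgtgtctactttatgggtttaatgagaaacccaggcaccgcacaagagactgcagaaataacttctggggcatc
Aspn, GRCm38.p6 chr13:49544193-49544442, plus strand: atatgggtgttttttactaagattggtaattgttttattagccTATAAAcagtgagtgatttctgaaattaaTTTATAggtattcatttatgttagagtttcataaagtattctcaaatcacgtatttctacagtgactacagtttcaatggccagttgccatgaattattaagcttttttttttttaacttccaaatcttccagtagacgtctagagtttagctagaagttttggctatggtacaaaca
Bgn, GRCm38.p6 chrX:73483351-73483600, plus strand: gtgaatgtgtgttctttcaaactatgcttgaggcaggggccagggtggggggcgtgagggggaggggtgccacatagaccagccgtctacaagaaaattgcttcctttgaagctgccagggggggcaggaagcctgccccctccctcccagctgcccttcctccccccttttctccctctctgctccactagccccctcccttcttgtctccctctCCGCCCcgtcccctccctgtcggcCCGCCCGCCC
Ogn, GRCm38.p6 chr13:49607765-49608014, plus strand: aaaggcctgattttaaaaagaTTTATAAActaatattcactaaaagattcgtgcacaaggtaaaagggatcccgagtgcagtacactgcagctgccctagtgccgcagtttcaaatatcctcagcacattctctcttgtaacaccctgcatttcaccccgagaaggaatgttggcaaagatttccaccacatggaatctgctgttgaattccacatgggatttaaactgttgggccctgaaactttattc
Both strands were searched for the CArG box, which SRF binds, the TATA box TATAAA, the AP-1 site TGANTCA and the GC box GGGCGG. No CArG box and no AP-1 site was found in any of the 5 promoters, Prelp included, against 1.47% and 6.75% of the 32851 promoters of the same length in the table. The Aspn window held TATA boxes on each strand, beginning at -207 and -178 relative to the start, and the Ogn window held an overlapping pair at -229 and -227. A TATA box was present in 12.4% of all promoters. The Bgn window had 3 GC boxes on the minus strand, at -34, -10 and -6, the last 2 overlapping, and 32.7% of all promoters had at least 1. No motif searched was found in the windows of Fmod and Prelp. The windows differed in base composition, from 30.0% G and C in Aspn to 64.4% in Bgn. A match describes letters only, and the absence of one says nothing about binding elsewhere.

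The values are log2 values per probe set. All 18 member probe sets passed a filter on dim values, which removed 40% of the table by mean over all arrays and kept 27029 probe sets and 12176 genes. They were tested with limma with genotype and set as terms, and p-values were adjusted by Benjamini-Hochberg over all 27029 probe sets. Differences are mutant minus control, so a difference of 1 is a 2-fold change, and levels of different probe sets are not compared. Array medians were 3.72 to 3.98. Correlations across probe sets were 0.983 to 0.997 among the arrays other than mutant 2 and 0.961 to 0.974 between mutant 2 and the rest. At an adjusted limma p under 0.05, 0.00% of all probe sets differed between the groups, and at an unadjusted p under 0.05, 706 genes were higher and 560 lower. The brightest Srf probe set was 0.20 lower (SE 0.19, adjusted p = 0.686) in the mutants. That difference was -0.01 without mutant 2, and the positions of its probes are not used here, so it does not check the deletion. Tagln was 0.29 lower (SE 0.05, adjusted p = 0.376).

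The members divided into those with a higher mean in the mutants (Lum, Dcn, Fmod and Aspn) and those with about the same mean (Bgn, Ogn and Prelp). None passed the adjusted threshold. Among the 18 probe sets 11 were higher and 7 lower in the mutants, and 10 were higher at an unadjusted limma p under 0.05, where 4.50% of all probe sets tested were. These 10 are not independent, since 6 belong to Fmod. By the brightest probe set of each gene, 4 of 7 members were higher at that level, against 5.80% of all genes tested. The median difference was 0.45 over the 7 members and -0.02 over all genes, of which 44.3% were higher in the mutants.

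**Figure D1:**
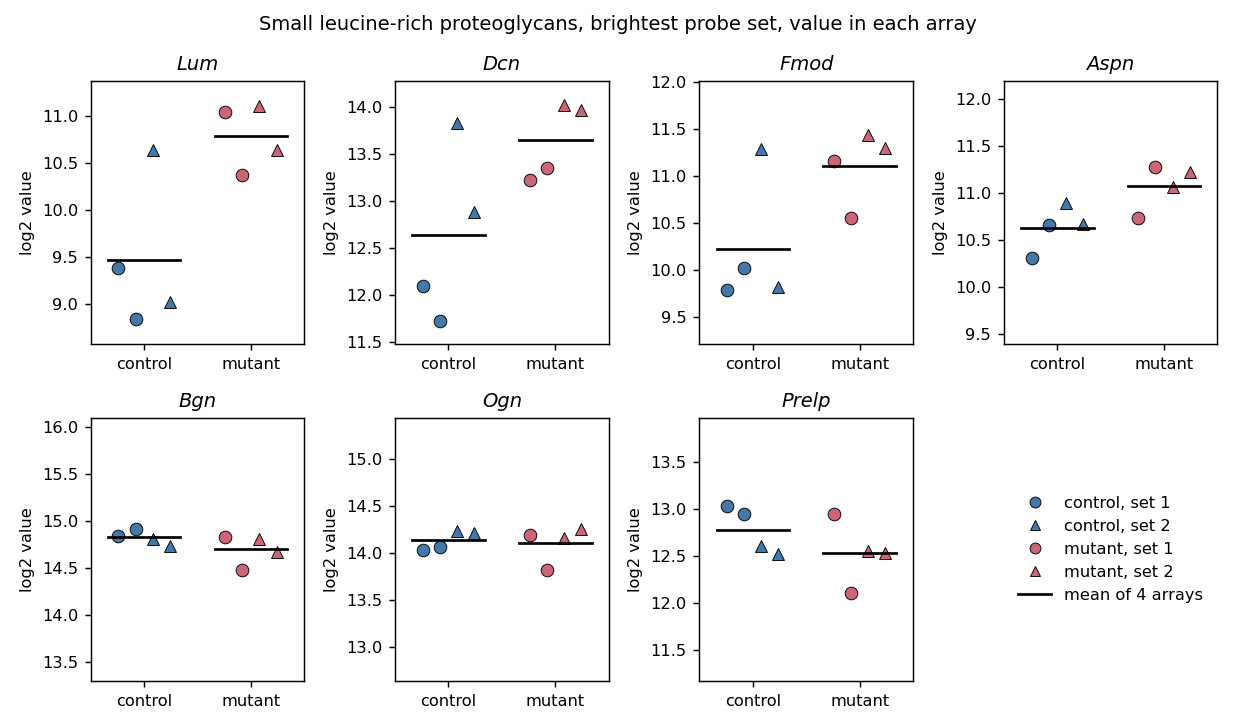
Log2 value of the brightest probe set of each member on each of the 8 arrays (blue for controls, red for mutants), circles for set 1 and triangles for set 2, and a line at the mean of the 4 arrays. The panels span the same height in log2 units at different positions. Control 3 lies near the mutants for Lum, Dcn and Fmod, while Bgn spans only 14.48 to 14.91 and Ogn 13.82 to 14.26.

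Lum encodes lumican, a keratan sulfate proteoglycan of collagen fibrils. Its probe set 1423607_at read 9.39, 8.84, 10.64 and 9.02 in controls 1 to 4 and 11.05, 10.37, 11.11 and 10.64 in mutants 1 to 4. Control 3 was as high as mutant 4 and above mutant 2, while the other 3 controls lay below every mutant. The means were 9.47 ± 0.81 and 10.79 ± 0.35 (SD, n = 4), a difference of 1.32 (SE 0.38, 95% confidence interval 0.42 to 2.22), or 2.50-fold. The adjusted p was 0.444, and an exact permutation test, two-sided, gave p = 0.0857, where 4 against 4 arrays allow no p below 0.0286. The difference was 1.60 in set 1, where the groups did not overlap, and 1.05 in set 2, where control 3 and mutant 4 had the same value. Without control 3 it was 1.70 (adjusted p = 0.109), and over the 18 alternatives run it was 1.05 to 1.70 with adjusted p from 0.109 to 0.935.

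Dcn encodes decorin, which coats collagen fibrils and binds transforming growth factor beta. Its brightest probe set, 1449368_at, read 12.10, 11.73, 13.83 and 12.89 in controls 1 to 4 and 13.23, 13.36, 14.03 and 13.97 in mutants 1 to 4. Over both sets the groups overlapped, since control 3 was above mutants 1 and 2, but within each set both mutants were above both controls. The difference was 1.01 (SE 0.24, 95% confidence interval 0.43 to 1.59), 2.01-fold, with an adjusted p of 0.387 and an exact permutation p of 0.114. Within the sets it was 1.38 and 0.64. Leaving out control 3 gave 1.27 with an adjusted p of 0.0559, the lowest adjusted p of any member in the alternatives run.

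The second Dcn probe set, 1441506_at, was dim, at 2.74 to 3.06 in the controls. Mutants 1 and 2 were at 4.58 and 3.92, above all controls, and mutants 3 and 4 were at 2.76 and 2.73, among the controls of their own set. It differed by 1.25 in set 1 and by 0.00 in set 2. The difference between sets, -1.25 (SE 0.29), did not pass the threshold (adjusted p = 0.625). This probe set passed the filter on dim values through mutants 1 and 2 and is given as values only. It is 1 of the 11 higher probe sets above and none of the 10 at an unadjusted p under 0.05.

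Fmod encodes fibromodulin, which controls the width of collagen fibrils and their cross-links. All 6 of its probe sets were higher in the mutants, by 0.60 to 1.00, and all 6 had an unadjusted limma p under 0.05. Of these, 5 are of the class whose probes may also match other transcripts (names ending in _x_at). The brightest, 1456084_x_at, read 9.79, 10.03, 11.29 and 9.82 in controls 1 to 4 and 11.16, 10.56, 11.44 and 11.30 in mutants 1 to 4. Control 3 was above mutants 1 and 2, and within each set both mutants were above both controls. The difference was 0.88 (SE 0.31, 95% confidence interval 0.15 to 1.62), 1.84-fold, with an adjusted p of 0.481 and an exact permutation p of 0.0857. Within the sets it was 0.95 and 0.82. Leaving out control 3 gave 1.19, and leaving out control 4 gave 0.60.

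The Fmod probe set outside that class, 1415939_at, read 7.49, 7.71, 9.30 and 7.72 in controls 1 to 4 and 9.22, 8.39, 9.21 and 9.34 in mutants 1 to 4. Control 3 was again at the level of 3 of the mutants, and mutant 2 was the lowest mutant. Its difference was 0.99 (SE 0.36).

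Aspn encodes asporin, a relative of decorin with a run of aspartic acid residues, which binds collagen and in cartilage cells restrains transforming growth factor beta. Its brightest probe set, 1448421_s_at, read 10.31, 10.66, 10.90 and 10.67 in controls 1 to 4 and 10.74, 11.28, 11.07 and 11.23 in mutants 1 to 4. Only mutant 1 lay below a control, namely control 3. The difference was 0.45 (SE 0.14, 95% confidence interval 0.10 to 0.79), 1.36-fold, with an adjusted p of 0.465 and an exact permutation p of 0.0571. The second probe set, 1416652_at, read 9.22, 9.49, 9.67 and 9.17 in the controls and 9.83, 10.47, 9.72 and 9.89 in the mutants. It was the 1 member probe set in which every mutant lay above every control, which 1.43% of all probe sets tested did. Its difference was 0.59 (SE 0.19, adjusted p = 0.464), and the exact permutation p was 0.0286, the smallest possible. Mutant 2 was the highest array in both probe sets, and without it the difference of the brightest was 0.32.

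**Figure D2:**
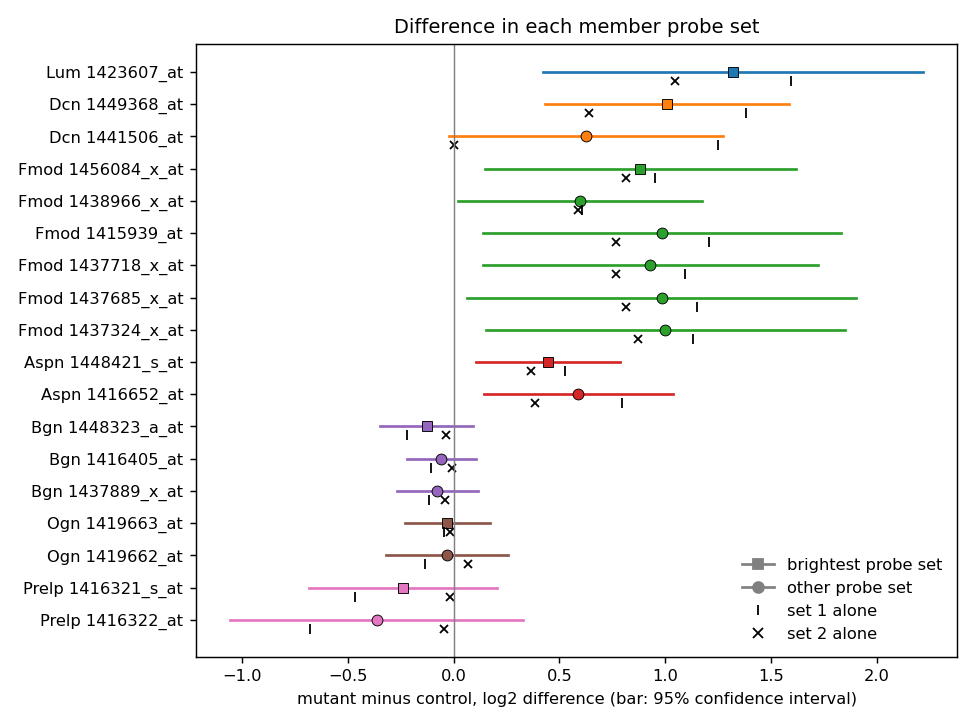
Difference between mutant and control means, in log2 units, for each of the 18 member probe sets, with the 95% confidence interval of the fit (horizontal lines), squares for the brightest probe set of a gene, and the difference within set 1 (tick) and set 2 (cross). All 6 Fmod probe sets lie above 0, the 3 Bgn probe sets lie between -0.13 and -0.06, and no probe set passed the adjusted threshold.

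Bgn encodes biglycan, a close relative of decorin that carries chondroitin or dermatan sulfate chains and is abundant in arteries. Its brightest probe set, 1448323_a_at, read 14.84, 14.91, 14.81 and 14.73 in controls 1 to 4 and 14.83, 14.48, 14.80 and 14.67 in mutants 1 to 4. Mutant 2 was the lowest array, and the other 7 lay between 14.67 and 14.91. The difference was -0.13 (SE 0.09, 95% confidence interval -0.35 to 0.09, adjusted p = 0.635, exact permutation p = 0.171). It was -0.04 without mutant 2. The interval does not reach the differences measured for Lum and Dcn. The other Bgn probe sets differed by -0.06 and -0.08, and by -0.002 and -0.004 without mutant 2. Values near the top of the table, which reaches 15.82, may be compressed, and Bgn and Ogn lie close to it. Dcn reached the range of Ogn in control 3 (13.83) and in mutants 3 and 4 (14.03 and 13.97). Compression was not tested.

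Ogn encodes osteoglycin, also called mimecan, which is made by vascular smooth muscle and carries keratan sulfate in some tissues. Its brightest probe set, 1419663_at, read 14.03, 14.07, 14.24 and 14.21 in controls 1 to 4 and 14.19, 13.82, 14.16 and 14.26 in mutants 1 to 4. The groups overlapped throughout and mutant 2 was the lowest array. The difference was -0.03 (SE 0.09, 95% confidence interval -0.23 to 0.17, adjusted p = 0.901, exact permutation p = 0.8), and the second probe set gave -0.03 (SE 0.12). Without mutant 2 both were higher in the mutants, by 0.047 and 0.094.

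Prelp encodes prolargin, which anchors basement membranes to the collagen beneath. Its brightest probe set, 1416321_s_at, read 13.04, 12.95, 12.61 and 12.52 in controls 1 to 4 and 12.95, 12.11, 12.56 and 12.54 in mutants 1 to 4. Mutant 2 stood below all other arrays, and the other mutants lay among the controls of their set. The difference was -0.24 (SE 0.19, 95% confidence interval -0.68 to 0.20, adjusted p = 0.658, exact permutation p = 0.286). It was -0.47 in set 1, -0.02 in set 2 and -0.03 without mutant 2. The second probe set, 1416322_at, read 10.75, 10.82, 9.88 and 9.33 in the controls and 10.73, 9.48, 9.65 and 9.47 in the mutants, a difference of -0.36 (SE 0.29), or -0.049 without mutant 2. Controls 1 and 2 and mutant 1 were high there, and all arrays of set 2 and mutant 2 were low.

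Single arrays weighed on the differences. Control 3 was the highest control in 13 of the 18 member probe sets, and mutant 2 was the lowest mutant in 13 and the highest in 2. Without control 3, no member passed the adjusted threshold and 11 probe sets of the whole table did, 0.0407% of those tested. The number of member probe sets at an unadjusted limma p under 0.05 was 11 without control 3 and 2 without control 1, all higher in the mutants. Of all probe sets, 4.82% and 2.80% were higher at that level. The 11 without control 3 include the dim Dcn probe set 1441506_at, which passed the filter through mutants 1 and 2, so no weight rests on it.

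**Figure D3:**
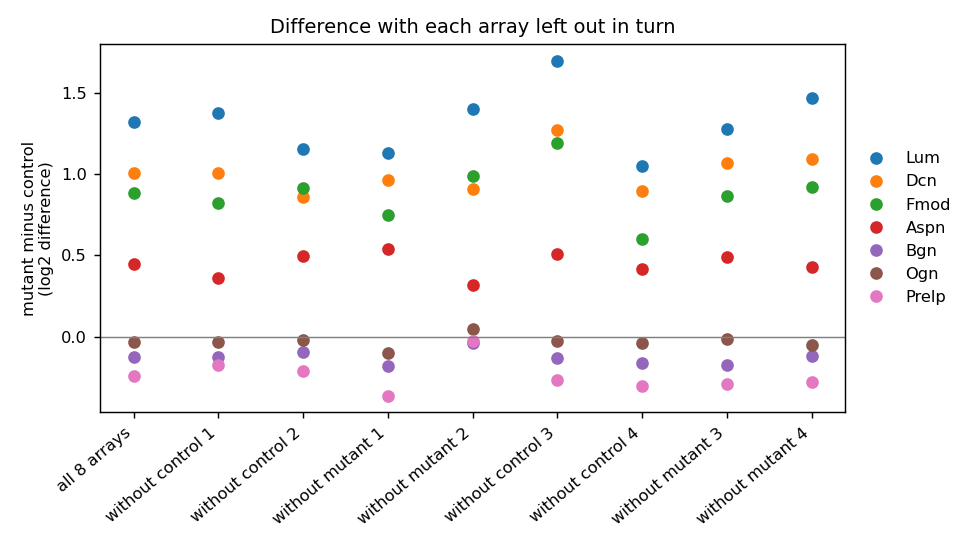
Mutant minus control difference in log2 units of the brightest probe set of each member with all 8 arrays and with each array left out in turn. Lum stays between 1.05 and 1.70 and Dcn between 0.86 and 1.27, while leaving out mutant 2 brings Bgn to -0.04 and Prelp to -0.03.

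The sets gave further information on the members. In set 1 both mutants were above both controls in 11 of the 18 probe sets, against 15.3% of all probe sets, and below in 2. Of these 11, 6 belong to Fmod and 1 is the dim Dcn probe set 1441506_at. That probe set passed the filter through mutants 1 and 2, the mutants of set 1, so no weight rests on its place among the 11. In set 2 both mutants were above both controls in 4, against 14.3%, and below in 0. The shares below were not counted over all probe sets, so no weight rests on the counts below. Dcn alone, in 1 of the 18 probe sets, differed between the sets themselves at the adjusted threshold, being 1.08 higher in set 2 (SE 0.24, adjusted p = 0.0227), a threshold that 21.4% of all probe sets tested passed. That call was lost when control 1, control 2 or mutant 3 was left out (adjusted p = 0.0608, 0.0596 and 0.0520). The genotype difference was not found to depend on the set for any member after adjustment. This interaction passed the adjusted threshold in 0 of 18 probe sets and in 0.0518% of all probe sets tested. It was largest, at -1.25 (SE 0.29), in the dim Dcn probe set 1441506_at, which passed the filter through mutants 1 and 2. For Lum the interaction was -0.55 (SE 0.78) and for the brightest Dcn probe set -0.74 (SE 0.43).

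The members also differed in how much arrays of the same set and group varied. The SD within set and group was 0.67 for Lum and 0.57 for Fmod, larger than that of 95.3% and 93.3% of the probe sets tested. It was 0.36 for Dcn, 0.30 for Prelp and 0.25 for Aspn. It was 0.14 for Bgn and for Ogn, below the median of 0.19 over all probe sets tested. Lum, with the largest difference, was thus also the member that varied most between arrays of the same kind.

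Across the 8 arrays, with each set centred on its mean, pairs of members ran from closely alike to opposed. The correlation was 0.94 between Lum and Dcn, 0.94 between Lum and Fmod, and 0.86 between Dcn and Fmod. Aspn was at 0.76 with Dcn, 0.61 with Fmod and 0.58 with Lum. The correlation was 0.94 between Bgn and Prelp, 0.83 between Ogn and Prelp and 0.73 between Bgn and Ogn. It was -0.79 between Aspn and Prelp and -0.23 between Lum and Bgn. These are descriptions over 8 arrays that share genotype and set, and single arrays such as mutant 2 and control 3 weigh in them.

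Among 12169 genes outside the 7 members, those most like each member by the same measure were as follows. For Lum they were Pcolce (0.990), Smoc2 (0.987) and Serpinf1 (0.987), and for Dcn they were Cd34 (0.992), Scara5 (0.991) and Fbln1 (0.990). For Fmod they were Shisa3 (0.989), Naalad2 (0.986) and Hhip (0.983), and for Aspn they were Dixdc1 (0.985), Egflam (0.984) and Tmem204 (0.976). For Bgn they were Cacnb2 (0.993), Cpne3 (0.992) and Slc29a1 (0.991), and for Prelp they were Setd7 (0.997), 2510009E07Rik (0.997) and Wfdc1 (0.995). For Ogn they were Cd164 (0.974), Cwc15 (0.971) and Ctnna3 (0.970). Without centring the sets, Cd164 and Cwc15 were at 0.20 and -0.05 with Ogn, Dixdc1 at 0.63 with Aspn, 2510009E07Rik at 0.80 with Prelp and Cpne3 at 0.85 with Bgn. Uncentred values for the first gene of Lum, Dcn and Fmod were 0.93 for Pcolce, 0.90 for Cd34 and 0.98 for Shisa3. The genes nearest to Lum and Dcn include Smoc2, Serpinf1, Cd34, Scara5 and Fbln1, all on the fibroblast list below. That list was chosen with earlier results of these data known, so no weight rests on the overlap.

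Whole aorta holds several cell types, and fewer cells of a type and less RNA per cell cannot be told apart in it. On the fibroblast list, with the members left out, 15 of 16 genes were higher in the mutants, with a median difference of 1.00 and none past the adjusted threshold. At an unadjusted limma p under 0.05, 12 were higher, against 5.80% of all genes tested, and 1 was lower, Mfap5 at -0.61 (SE 0.26). The mean log2 value of the list was 8.41 to 9.51 in the controls and 9.49 to 9.70 in the mutants, and control 3 was at 9.51. The mean of the 4 members Lum, Dcn, Fmod and Aspn was also highest among the controls in control 3, with 10.40, 10.32, 11.66 and 10.60 in controls 1 to 4 and 11.54, 11.39, 11.91 and 11.78 in mutants 1 to 4. Control 3 lay above mutants 1 and 2 in this mean and above mutant 2 in the fibroblast mean. The correlation with the fibroblast mean, sets centred, was 0.98 for Lum, 0.98 for Dcn, 0.92 for Fmod and 0.68 for Aspn, and -0.39 for Bgn, -0.06 for Ogn and -0.35 for Prelp. The likeness was not limited to fibroblast genes. Dcn was at 0.94 with the leukocyte mean and 0.91 with the endothelial mean, Lum at 0.87 and 0.76, and Fmod at 0.76 and 0.70. Aspn was at 0.92 with the endothelial mean and -0.88 with the smooth muscle mean.

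Markers of other non-muscle cells of the wall were also higher in the mutants. All 10 endothelial genes tested were higher, with a median of 0.98 and list means of 7.52 to 8.46 in the controls and 8.15 to 10.06 in the mutants. All 9 macrophage and other leukocyte genes tested were higher, with a median of 1.15 and means of 5.52 to 6.46 and 6.48 to 7.79. Itgam, Cd3e and Cd79a were left out as dim. Leukocyte means were 5.88 and 5.52 in controls 1 and 2 and 7.79 and 7.51 in mutants 1 and 2. In set 2 they were 6.46 and 5.85 in controls 3 and 4 and 6.48 and 6.74 in mutants 3 and 4. Without mutant 2 the median was 0.78 for the endothelial and 0.98 for the leukocyte list. All 5 adipocyte genes tested had a higher mean in the mutants, none at an unadjusted limma p under 0.05, with list means of 8.51 to 10.05 and 9.08 to 12.34, mutant 2 being the highest. In set 2, 4 of these 5 were lower in the mutants, and the list median was 1.33 with all arrays and 0.53 without mutant 2. All 10 smooth muscle genes were lower, with a median of -0.26 (-0.17 without mutant 2) and means of 13.77 to 13.88 and 13.48 to 13.58. The 5 cartilage genes tested had a median of -0.01, and Col2a1, Cnmd and Col9a1 were left out as dim. None of the 4 mesothelial genes passed the filter. Heart and striated muscle genes were at a mean of 9.53 in control 3 and at 3.95 to 7.36 in the other arrays. The part of these cell types in the members' differences was not tested.

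**Figure D4:**
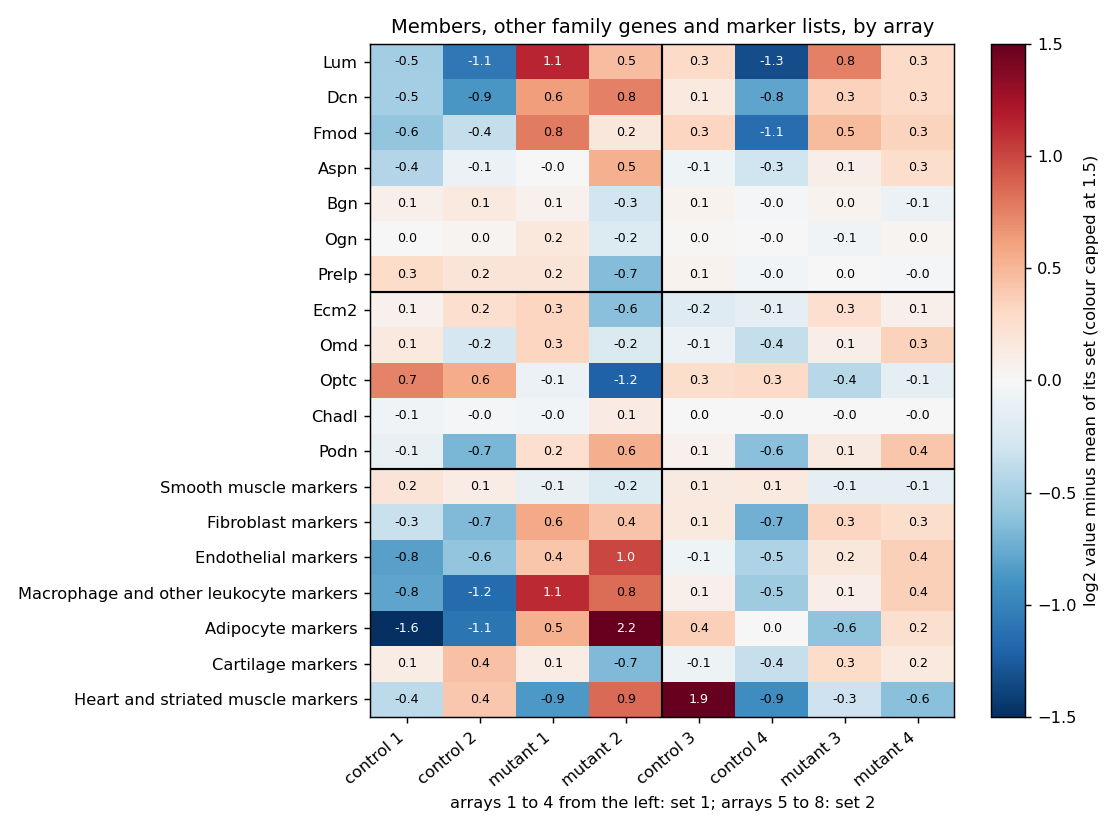
Log2 value minus the mean of the 4 arrays of the same set, per array, for the 7 members (top), 5 other genes of the family (middle) and the mean of 7 marker lists (bottom), with the colour capped at 1.5 in either direction and the value printed in each cell. Rows Lum, Dcn and Fmod are low in controls 1, 2 and 4 and near or above 0 in control 3, as is the fibroblast row, and heart and striated muscle markers are highest in control 3.

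Of the 11 other genes of the family on the list, 5 could be tested and 4 were higher in the mutants and 1 lower, with a median of 0.04 (0.26 without mutant 2) and none past the adjusted threshold. Podn encodes podocan, which binds collagen, and its probe set read 6.60, 6.02, 7.24 and 6.55 in controls 1 to 4 and 6.96, 7.26, 7.31 and 7.59 in mutants 1 to 4, a difference of 0.68 (SE 0.21, adjusted p = 0.463). Optc, the neighbour of Prelp, read 10.90, 10.71, 8.48 and 8.50 in the controls and 10.07, 8.94, 7.80 and 8.08 in the mutants, a difference of -0.93 (SE 0.27, adjusted p = 0.448). Optc was the only 1 of the 5 that was lower, and its values were 1.94 lower in set 2 than in set 1. Omd, between Aspn and Ogn, differed by 0.27 (SE 0.17), Ecm2, the other neighbour of Aspn, by 0.01 (SE 0.23), and Chadl by 0.04 (SE 0.07). Without mutant 2 these were 0.41 for Omd, 0.26 for Ecm2 and -0.005 for Chadl. Among neighbouring members, Dcn and Lum were at 1.01 and 1.32, and Fmod and Prelp at 0.88 and -0.24 (-0.03 for Prelp without mutant 2), and no test compared neighbours. Kera, Epyc, Chad and Nyx were left out as dim, and Tsku and Podnl1 had no probe set here.

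The enzymes that build the sulfated chains of these proteoglycans did not differ past the adjusted threshold. Of 20 genes tested for chondroitin or dermatan sulfate, 6 were higher and 14 lower, with a median of -0.10. The 4 with the smallest p were Chst11 at 0.72 (SE 0.17, adjusted p = 0.384), Chst12 at -0.35 (SE 0.08), Ust at -0.59 (SE 0.17) and Chsy3 at -0.86 (SE 0.25). Chst11 and Chst12 encode sulfotransferases of the chain, Ust one that sulfates uronic acid, and Chsy3 a polymerising enzyme. For keratan sulfate 2 of 5 genes tested were higher, 2 lower and 1, Fut8, equal, with a median of 0.00. Among them Chst1, a sulfotransferase, was at 1.00 (SE 0.47), with 1.595 in set 1 and 0.395 in set 2. B4galt4 was at -0.41 (SE 0.17).

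Other proteoglycans were evenly split, with 10 of 20 genes higher and 10 lower and a median of 0.00. The 4 with the smallest p were Srgn at 1.22 (SE 0.20, adjusted p = 0.376), Cspg4 at -0.40, Tgfbr3 at 0.31 and Prg4 at 2.06 (SE 0.74). Srgn encodes serglycin of secretory granules in blood cells, and Cspg4 the NG2 proteoglycan of pericytes and smooth muscle. The difference of Prg4, lubricin, was 3.82 in set 1 and 0.30 in set 2.

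Several members bind the products of fibrillar collagen genes. Of 7 fibrillar collagen genes tested, 4 were higher and 3 lower, with a median of 0.05 and none at an unadjusted limma p under 0.05. Col1a1 was at 0.17 and Col5a2 at -0.18, while Col5a3 was at 1.22 (SE 0.64), with 1.76 in set 1 and 0.67 in set 2. Col11a1, 1 of the 4 higher, was at 0.69, with 1.365 in set 1 and 0.005 in set 2. Its control mean of 2.80 was below the filter limit of 2.97. It thus passed the filter on dim values through the mutants, and no weight rests on its place among the 4. Of 12 genes of collagen processing, 4 were higher, 7 lower and 1, P4ha3, equal. Pcolce, the enhancer of procollagen processing, was at 0.70 (SE 0.19, adjusted p = 0.433), Lox, a cross-linking enzyme, at -0.37, Loxl1, its relative, at -0.24, and Plod1, a lysyl hydroxylase, at 0.14.

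Among 15 genes of growth factors and receptors bound by these proteoglycans, 8 were higher and 7 lower, with Bmp4 at 0.81, Bmp2 at 0.52, Ccn4 at 0.58 and Tgfb2 at -0.75. Bmp2, Bmp4 and Tgfb2 encode growth factors of the transforming growth factor beta family, and Ccn4 encodes a matricellular protein. Of 10 proteases that cleave proteoglycan cores, 5 were higher and 5 lower. At an unadjusted limma p under 0.05, 4 were higher, against 5.80% of all genes tested. Those 4 were Mmp2 at 0.55 (SE 0.15), Mmp3 at 1.27 (SE 0.35), Adamts15 at 0.32 and Adamts5 at 0.38. None of these lists had a gene past the adjusted threshold.

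**Figure D5:**
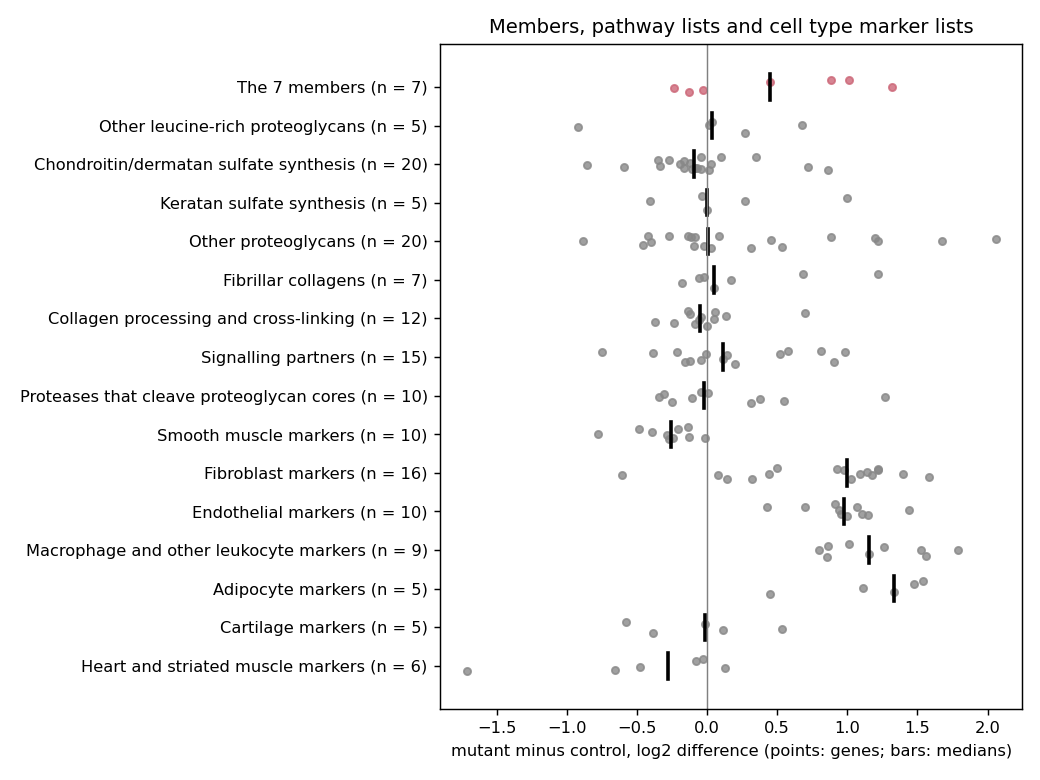
Mutant minus control difference in log2 units of each tested gene (points) of the members and of the lists of other family genes, chain synthesis, other proteoglycans, collagens, collagen processing, signalling partners and proteases and of 7 cell type marker lists, with a bar at each median and a line at 0. The members' median is 0.45, the pathway list medians run from -0.10 to 0.12 (from -0.05 to 0.26 without mutant 2), and those of the fibroblast, endothelial and leukocyte markers are 1.00, 0.98 and 1.15.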

How the data were processed

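Messenger RNA was measured with Affymetrix mouse arrays in 8 aorta samples, 4 per group. Groups follow the labels, and replicate numbers follow accession order, so equal numbers were not taken as pairs. RNA was prepared with a fibrous tissue kit, per the labels' protocols. The submitters' processing notes name GCOS and no version. How background and arrays were normalized is not stated in the sources read. The deposited values are log2 per probe set, with a range of 0.9 to 15.82, and were used as deposited by the authors. The number of arrays limits the precision.

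Probe sets with 1 gene symbol in the platform annotation were named (34945 of 45037). The lowest 40% by mean over the 8 arrays (mean below 2.97) were left out. The model, fitted with limma 3.58.1 (R 4.3.3), had terms for genotype and set and a mean-variance trend, with two-sided p-values adjusted by Benjamini-Hochberg over 27029 probe sets at a threshold of 0.05. The procedure was tested on simulated data. A gene's brightest probe set is the one with the highest mean. Named genes are the members, Srf, Tagln, family neighbours, up to 4 genes with the smallest p per list and the 3 genes most correlated with each member. The members and lists were chosen with earlier results of these data known. Alternatives were other filters, quantile normalization, centring on medians, a fit without the set term, other variance models, array weights, each array left out and each set alone. Promoters and gene order came from RefSeq (GRCm38.p6). Exact permutation tests exchanged all 8 arrays without regard to set and used scipy 1.17.1 in Python 3.11.15. Figures used matplotlib 3.10.9.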

Additional observations from a re-analysis of the deposited data

Results flagged for a closer look

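In each member probe set the 4 arrays of each group were examined for an array whose gap to its nearest neighbour took an unusually large part of the group's range. In 36 such groups there were 6 cases, where chance gives about 1 in 20 groups, and the probe sets of a gene are not independent. Control 3 was the high control in 3 Fmod probe sets, with a gap of 0.873 of the range in 1415939_at, 0.842 in 1437718_x_at and 0.840 in 1456084_x_at. Mutant 2 was the low mutant in Fmod 1415939_at, with a gap of 0.863, and in Ogn 1419662_at, with a gap of 0.873. Mutant 1 was the high mutant in Prelp 1416322_at, with a gap of 0.857. The rule takes no account of the sets, and the chance rate holds only where the sets are alike. In that probe set mutant 1, at 10.73, was close to controls 1 and 2 of its own set, at 10.75 and 10.82. Without control 3 the Fmod difference was 1.19 in place of 0.88.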

How the results depend on the processing

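No paired analysis was possible because replicate numbers follow accession order and the array titles of set 1 each carry a different number. No member passed the adjusted threshold in any alternative run, and the differences of Lum, Dcn, Fmod, Aspn, Bgn and Prelp kept their sign in all 18. Ogn reversed to 0.059 with array weights, and with each array left out it ran from -0.10 to 0.047. The count of all probe sets past the threshold, 0 as reported, was 10 with array weights and 0 to 11 with an array left out (11 without control 3). The count of member probe sets at an unadjusted limma p under 0.05 was 10 as reported. It was 5 with no set term, 10 in set 1 alone, 1 in set 2 alone and 2 to 11 with an array left out. The 11 include the dim Dcn probe set 1441506_at. Shares of all probe sets at that level were counted only for the main fit and without control 3 or control 1. The other counts are thus not set against the whole table. The median over the members was 0.32 to 0.54 over all 19 alternatives. With an array left out, the difference between sets of Bgn ran from -0.10 to 0.039, and the genotype by set interaction ran from -1.36 to 0.26 for Lum, from -0.87 to 0.60 for Fmod, from -0.15 to 0.21 for Ogn and from -0.43 to 0.11 for Aspn. Of the set differences, Prelp passed without mutant 2 (-0.42, adjusted p = 0.00222), and its interaction passed without mutant 1 (0.87, adjusted p = 0.00947). The cause of these shifts was not tested. An arm left with 1 array in a set is assumed to vary like the others.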
